A study of Arabidopsis thaliana with 6 samples.

Results

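The 10 genes described here encode enzymes of the general phenylpropanoid pathway and of its lignin branch in Arabidopsis thaliana. They were chosen by locus from the 38064 genes of the count table, with earlier results of these data known. They are PAL1, PAL2, PAL3, PAL4, C4H, 4CL1, 4CL2, CCOAOMT1, CCR1 and CAD5. Polyadenylated RNA was sequenced from 3 Col-0 wild-type libraries and from 3 libraries of bdh1-1 bdh2-1 seedlings, a double mutant here called bdh with lesions in the pair of genes that encode BCL-DOMAIN HOMOLOG proteins. The title of the study ties them to the stability of SWI/SNF chromatin remodelling complexes, and its design text asks what underlies the phenotypes of the mutant in darkness. All seedlings were grown on half-strength MS plates (Murashige and Skoog medium) kept dark at 22 degrees until day 5, so both groups were etiolated. The sample labels name whole seedlings, whereas the design text speaks of hypocotyls. The labels do not say whether the libraries of a group came from separate sets of seedlings, so p-values measure the spread between these libraries, which may be technical.

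Phenylpropanoid synthesis starts from the amino acid phenylalanine. Phenylalanine ammonia-lyase (PAL) removes its amino group, cinnamate 4-hydroxylase (C4H) adds a hydroxyl group to the ring, and 4-coumarate CoA ligase (4CL) activates the product, from which flavonoids, soluble esters and monolignols branch off. In the lignin branch, caffeoyl-CoA O-methyltransferase (CCOAOMT1) adds a methyl group, cinnamoyl-CoA reductase (CCR1) makes aldehydes and cinnamyl alcohol dehydrogenase (CAD5) makes the monolignols that laccases and peroxidases join into lignin. Lignin stiffens the walls of xylem vessels and forms the Casparian strip of the root endodermis.

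Many promoters of this pathway are known to hold AC elements, short motifs bound by MYB transcription factors, so the starts of the 10 genes were searched for them as a description of what the genes share. The letters searched were ACCTACC (AC-I), ACCAACC (AC-II) and ACCTAAC (AC-III), on both strands, from 250 bases before to 50 bases after the annotated transcript start in RefSeq TAIR10.1. AC-I and AC-II can overlap by their letters ACC, but no matches in the 10 genes did. At least 1 of them was found in 6 of the 10 genes, against 7.29% of the 27443 protein-coding genes searched the same way. AC-II was in 5 of the 10 (3.29% of all) and AC-I in 1 (378 of the 27443), while AC-III, in 2.88% of all, was in 0. All 7 matches in these genes lay on the strand of the gene. Each is printed with its flanking bases, 5′ to 3′ on the strand of the gene and with the element in capitals, because 6 of the 10 genes hold such an element and the other 4 do not.

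PAL1, chr2:15560706-15560728, minus strand, element from base 39 after the start: ctcgtagtctcACCAACCgcgaa
PAL2, chr3:19747094-19747122, minus strand, element from base 4 after the start: caaaaagtctcACCAACCgcaaaacgctt
4CL2, chr3:7457527-7457555, minus strand, element from base -140: tagagtagctcACCAACCcctacatgaac
4CL2, chr3:7457418-7457446, minus strand, element from base -31: aataacatttcACCAACCacaaattcttt
CCOAOMT1, chr4:16310185-16310213, plus strand, AC-I element from base -213: ccaagagattcACCTACCacggtacactt
CCR1, chr1:5478578-5478606, plus strand, element from base -14: cttcttcttccACCAACCcctctttctat
CAD5, chr4:16389161-16389189, minus strand, element from base -238: attgtttgttcACCAACCcccgtggaccc

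The elements of PAL1 and PAL2 share the flank ending in agtctc before the motif, and lie after the annotated start. Of the genes with a match, 1 (CCR1) was among those that differed between the genotypes. PAL3, the other gene that differed, held none of the 3 motifs in this window. The 250 bases before the starts of these 2 genes are given because they were the 2 that differed, with the element of CCR1 in capitals.

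PAL3, chr5:1160319-1160568, plus strand: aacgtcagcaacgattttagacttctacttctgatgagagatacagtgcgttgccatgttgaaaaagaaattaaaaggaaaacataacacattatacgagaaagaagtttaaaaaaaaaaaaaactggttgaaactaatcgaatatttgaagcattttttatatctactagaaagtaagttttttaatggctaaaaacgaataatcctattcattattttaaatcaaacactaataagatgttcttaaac
CCR1, chr1:5478353-5478602, plus strand: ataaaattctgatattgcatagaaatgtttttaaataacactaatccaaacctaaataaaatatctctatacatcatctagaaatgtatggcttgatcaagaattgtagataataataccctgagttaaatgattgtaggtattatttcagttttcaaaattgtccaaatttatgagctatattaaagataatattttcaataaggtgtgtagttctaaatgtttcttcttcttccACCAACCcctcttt

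**Figure D1:**
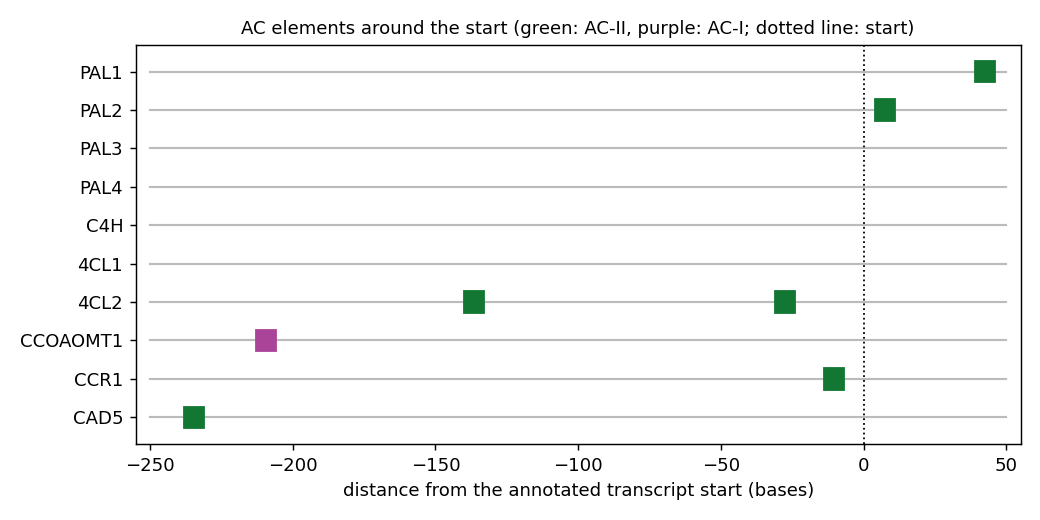
Positions of AC elements in the 10 genes, from 250 bases before to 50 bases after the annotated transcript start (x axis, bases), 1 row per gene in pathway order; green boxes are AC-II and the purple box is AC-I. The windows of PAL3, PAL4, C4H and 4CL1 hold none, and that of 4CL2 holds 2.

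The libraries held between 40876788 and 44982000 counts each. AT4G22320 and AT5G55210 were taken as the 2 mutated loci, a link to the names BDH1 and BDH2 that the labels do not give. Both were low in all 3 mutant libraries (log2 fold changes -3.63 and -5.47, edgeR adjusted p 0.000105 and 1.66e-05). Over all genes, 4882 of 20791 tested differed between the genotypes at an adjusted p under 0.05, 2526 higher and 2356 lower in bdh. Protochlorophyllide reductase PORA, a gene of etiolated tissue, was abundant in every library but higher in bdh, with 506 to 607 CPM (counts scaled to library size with TMM factors) in the wild type and 713 to 1212 CPM in the mutant (log2 fold change 0.78, edgeR adjusted p 0.0126). Its relative PORB was higher as well (0.78, 0.00862), so both genes moved with the genotype, and their part in the results was not tested. Transcripts of 11 seed storage and oil body genes, taken as markers of seed remnants, summed to 1.46, 76.6 and 99.6 CPM in wild-type replicates 1, 2 and 3 and to 5.85 to 7.71 CPM in the mutant libraries, so wild-type replicates 2 and 3 stood apart from the other 4 libraries in these transcripts.

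PAL3 and CCR1 were lower in bdh, and the other 8 phenylpropanoid genes were not past the threshold. Values of single libraries are given in the order of replicates 1, 2 and 3 throughout. All 10 passed the filter on low counts. By edgeR's quasi-likelihood test, 2 of the 10 were past the threshold, both lower and 0 higher, against 23.5% of all genes tested (11.3% lower and 12.1% higher). The share is thus near that of all genes. At an unadjusted p under 0.05, 1 was higher, CCOAOMT1, and with DESeq2 the same gene was past the adjusted threshold. The median log2 fold change of the 10 was -0.04 and their median absolute log2 fold change 0.16, against 0.00 and 0.26 over all genes tested. For 3 of the 10 (PAL3, CCOAOMT1 and CCR1) the ranges of CPM were separate between the genotypes, against 41.3% of all genes tested.

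**Figure D2:**
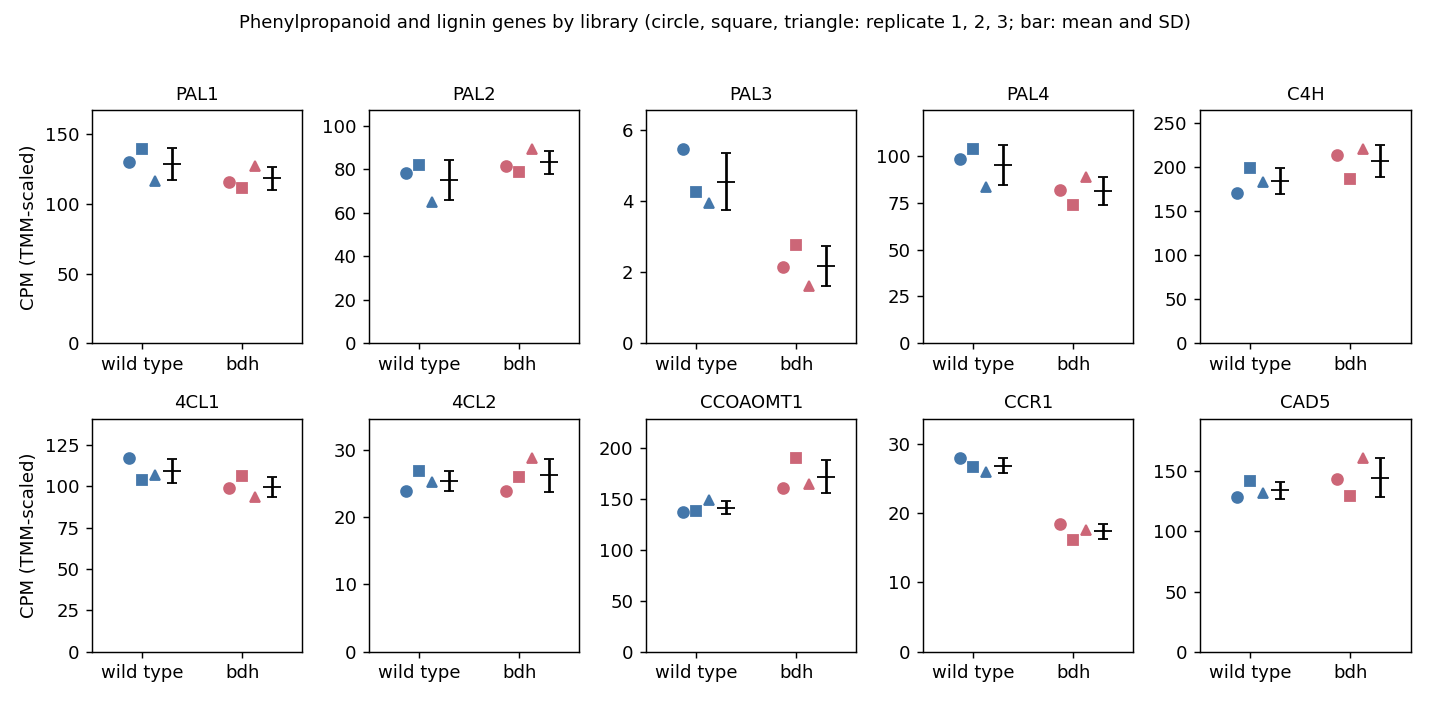
CPM (y axis, from 0, on a separate linear scale for each gene) of the 10 genes in the wild-type (blue) and bdh (red) libraries; circles, squares and triangles are replicates 1, 2 and 3, and bars give the mean and SD of 3 libraries. The groups are apart for PAL3 and CCR1, lower in bdh, and for CCOAOMT1, where they lie at 137 to 149 and 161 to 191 CPM, while they overlap for the other 7.

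The pathway opens with the PAL genes, 4 genes for the same enzyme activity. PAL1 (AT2G37040) had 131, 139 and 117 CPM in the wild type and 116, 112 and 128 CPM in the mutant. The groups overlapped, and its log2 fold change, -0.12 with an SE of 0.10, was not past the threshold (edgeR adjusted p 0.394). PAL2 (AT3G53260) had 78.3, 82.1 and 64.8 CPM in the wild type and 81.5, 78.7 and 89.1 CPM in bdh, also with overlap (log2 fold change 0.15, SE 0.11, edgeR adjusted p 0.340). PAL4 (AT3G10340) had 98.4, 103.6 and 83.4 CPM against 81.6, 73.9 and 88.7 CPM. Here 2 of the mutant libraries were below the lowest wild-type library and the third was within the wild-type range (log2 fold change -0.22, SE 0.11, edgeR adjusted p 0.158).

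PAL3 (AT5G04230) was the least abundant of the 4 and the one that fell. The wild-type libraries held 247, 188 and 182 counts of it and those of the mutant 94, 116 and 70. These are 5.46, 4.25 and 3.95 CPM against 2.14, 2.76 and 1.62 CPM, so every mutant library was below every wild-type library. PAL3 thus fell from a mean of 4.55 ± 0.803 CPM to 2.17 ± 0.571 CPM (SD, n = 3 in each group). On the log2 scale this is -1.07 (SE 0.22, approximate 95% interval -1.56 to -0.57; edgeR adjusted p 0.00929). It was also past the threshold without any 1 library, with log2 fold changes from -1.27 to -0.89.

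Levels of different genes were compared per kilobase of exonic sequence not shared with another gene. On that scale the PAL genes together had 106.7 ± 10.97 CPM per kilobase in the wild type and 99.9 ± 7.09 in bdh (SD, n = 3 each), a difference within the spread of the libraries. PAL1 made up 41.3 ± 0.856% of this sum in the wild type and 40.5 ± 0.305% in bdh. The share of PAL2 was 24.7, 24.6 and 23.8% in the wild type and 28.6, 29.1 and 28.7% in the mutant. PAL4 made up 32.9, 32.9 and 32.5% in the wild type and 30.4, 29.0 and 30.3% in bdh, and PAL3 1.64 ± 0.251% and 0.846 ± 0.277%. For PAL2, PAL3 and PAL4 the shares of the groups did not overlap, with PAL2 above and PAL3 and PAL4 below the wild type. The shares are parts of the same sum, so a higher share of PAL2 lowers the others and these are not separate results. In CPM the groups of PAL2 and of PAL4 overlapped.

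**Figure D3:**
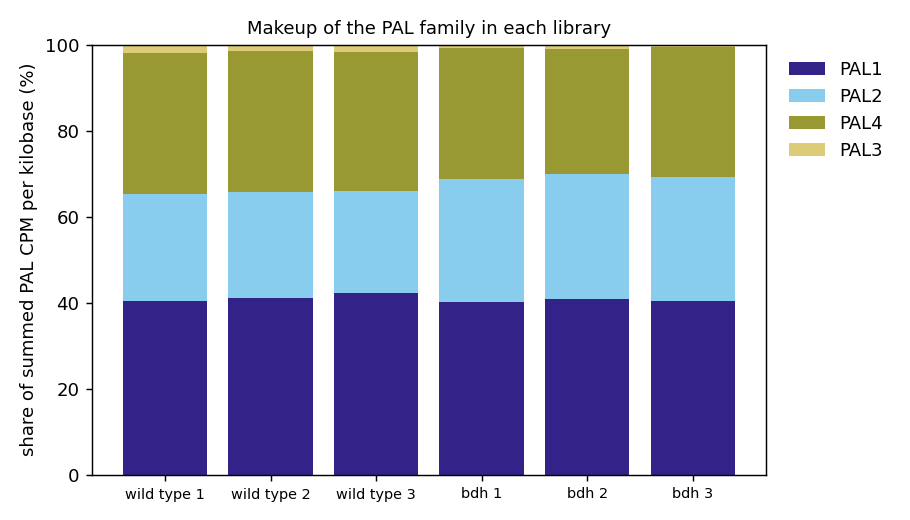
Share of the summed PAL level (y axis, percent of CPM per exonic kilobase) held by each PAL gene in the 6 libraries (x axis). The segment of PAL2 is between 23.8 and 24.7% in the wild type and between 28.6 and 29.1% in bdh.

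The ratio of PAL1 to PAL2, which does not depend on how libraries are scaled, was 0.71, 0.74 and 0.83 on the log2 scale in the wild type and 0.49, 0.48 and 0.50 in the mutant. The difference of -0.27 was larger than the SD of either group (0.06 and 0.01), and the groups did not overlap. The log2 ratio of PAL1 to PAL4 was 0.33 ± 0.04 in the wild type and 0.44 ± 0.05 in bdh (SD, n = 3 each), again without overlap. For both ratios an exact two-sided permutation test over libraries gave p = 0.1, the smallest it can give with 3 libraries against 3, and 0.15 when adjusted over the 3 ratios tested. RefSeq transcripts of PAL1 and PAL2 match over 2084 bases at 84.7% identity, and none of the 10 genes has a copy elsewhere that matches over 100 bases or more at 95% or more.

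C4H (AT2G30490), a cytochrome P450, had 170, 199 and 183 CPM in the wild type and 214, 186 and 220 CPM in the mutant. Its groups overlapped, and its log2 fold change was 0.17 (SE 0.10, edgeR adjusted p 0.254). 4CL1 (AT1G51680) had 117, 104 and 107 CPM against 99.2, 106 and 93.5 CPM, and 4CL2 (AT3G21240) had 23.8, 26.9 and 25.2 CPM against 23.9, 25.9 and 28.8 CPM. For both ligase genes the groups overlapped, with log2 fold changes of -0.13 (edgeR adjusted p 0.307) and 0.05 (0.751). The log2 ratio of 4CL1 to 4CL2 was 1.82 ± 0.18 in the wild type and 1.64 ± 0.20 in bdh (SD, n = 3 each; exact two-sided permutation p = 0.4, adjusted 0.4).

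In the lignin branch, CCR1 (AT1G15950) was lower in bdh. The wild-type libraries held 1267, 1181 and 1196 counts of it and those of the mutant 807, 679 and 758, which are 28.0, 26.7 and 25.9 CPM against 18.4, 16.2 and 17.5 CPM. The gap between the groups was wider than the range within either. CCR1 fell from a mean of 26.9 ± 1.06 CPM to 17.4 ± 1.13 CPM (SD, n = 3 in each group), to 0.646 times the wild-type level. On the log2 scale this is -0.63 (SE 0.09, approximate 95% interval -0.84 to -0.42; edgeR adjusted p 0.00233). Without any 1 library the log2 fold change ran from -0.67 to -0.58, past the threshold each time. In wild-type replicate 1, which had few seed transcripts like the mutant libraries, PAL3 and CCR1 were the highest of the 6 libraries. The part of seed remnants in the lower counts of both genes was not tested.

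The exons of CCR1 overlap those of 2 genes on the opposite strand, AT1G05213 and the metal transporter gene NRAMP6, over 77.2% of their 1957 bases, which leaves 446 bases of its own. This bears on the counts. Of the 345 protein-coding genes whose exonic bases all lie under exons of the opposite strand, 98.6% had 0 counts in all 6 libraries, against 15.2% of the 20770 genes with no such overlap, although the libraries were strand-specific. Whether the counts of CCR1 come from its 446 free bases alone was not tested. AT1G05213 had 45, 29 and 38 counts in the wild type and 13, 22 and 22 in bdh (log2 fold change -0.90, edgeR adjusted p 0.0812), and NRAMP6 had 76 to 144 and 92 to 127 (log2 fold change -0.02, edgeR adjusted p 0.957). Both had far fewer counts than CCR1, and their part in its fall was not tested.

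CCOAOMT1 and CAD5, which act before and after CCR1, were not past the threshold. CCOAOMT1 (AT4G34050) had 137, 138 and 149 CPM in the wild type and 161, 191 and 165 CPM in the mutant. Every mutant library was above every wild-type library, and its log2 fold change, 0.28 with an SE of 0.10, had an edgeR adjusted p of 0.0593, with 0.0389 from DESeq2 and 0.0452 with upper-quartile factors. Other settings moved it away from the threshold. With the offset for exonic length its log2 fold change was 0.21 (edgeR adjusted p 0.166), and with a replicate block the edgeR adjusted p was 0.164. Without any 1 library the edgeR adjusted p lay between 0.0835 and 0.157. CAD5 (AT4G34230) had 128, 142 and 132 CPM against 144, 129 and 162 CPM, with overlap (log2 fold change 0.11, SE 0.10, edgeR adjusted p 0.468). For the 8 genes not past the threshold, the approximate 95% intervals of the log2 fold change lay between -0.47 (the lower bound of PAL4) and 0.50 (the upper bound of CCOAOMT1).

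**Figure D4:**
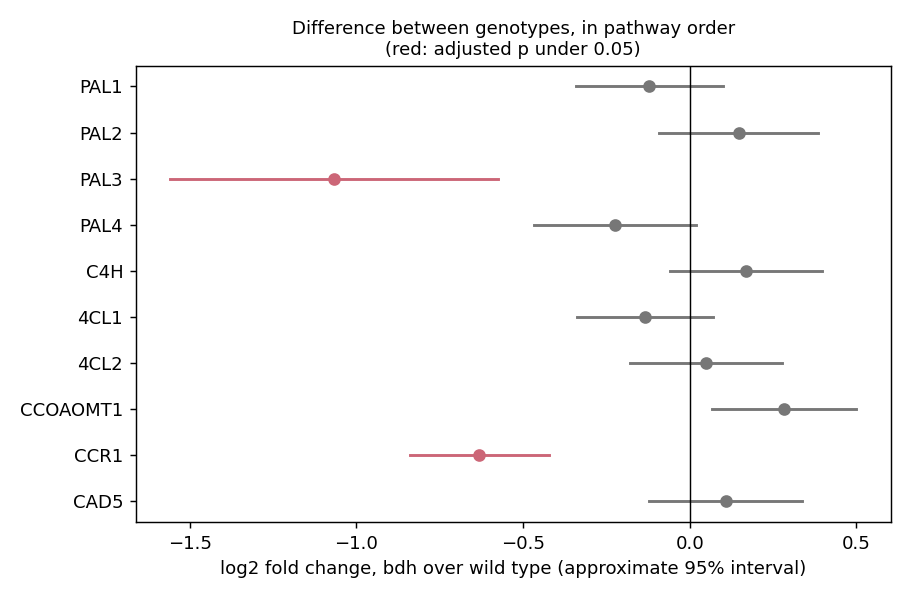
Log2 fold change of bdh over wild type (x axis) of the 10 genes in pathway order, with approximate 95% intervals; red marks an adjusted p under 0.05. PAL3 (-1.07) and CCR1 (-0.63) lie to the left of 0, and the intervals of the other genes include 0 except that of CCOAOMT1 (0.07 to 0.50).

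Per kilobase of exonic sequence of their own, the genes ranked in the wild type as CCOAOMT1 (91.2 ± 4.16 CPM per kilobase, SD), C4H (88.3 ± 6.97), CAD5 (83.0 ± 4.42), CCR1 (60.3 ± 2.37), PAL1 (44.0 ± 3.88), 4CL1 (43.2 ± 2.78), PAL4 (35.0 ± 3.84), PAL2 (26.0 ± 3.15), 4CL2 (12.1 ± 0.728) and PAL3 (1.75 ± 0.308), each with n = 3. CCOAOMT1, C4H and CAD5 lay within the spread of their neighbours in this order, as did PAL1 and 4CL1. On its whole exonic length the level of CCR1 would be 13.7 ± 0.541 CPM per kilobase, next to that of 4CL2. In bdh CCR1 was at 38.9 ± 2.53 CPM per kilobase, close to PAL1 (40.4 ± 2.79) and 4CL1 (39.3 ± 2.50). The level of PAL3 in bdh, 0.833 ± 0.219 CPM per kilobase, stayed the lowest of the 10.

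In seedlings sampled whole or as organs, fewer cells of a type and less RNA per cell cannot be told apart. Markers of the cells that lignify were therefore set beside these results. The 9 xylem markers summed to 338 to 365 CPM in the wild type and 339 to 352 CPM in bdh, and the 6 endodermis markers to 512 to 667 and 544 to 789 CPM, so both sums overlapped between the groups. Of the xylem markers 2 were past the threshold, which is 22.2% against 23.5% of all genes tested. They went in opposite directions: the xylem peptidase gene XCP1 was higher (log2 fold change 0.41, edgeR adjusted p 0.00930) and its relative XCP2 lower (-0.26, 0.0473). The other 7 were not past the threshold. Among them the cellulose synthase genes CESA4 (-0.18) and CESA7 (-0.17) were lower in every mutant library than in any of the wild type, and the metacaspase gene MC9 (0.19) was higher in every one. CESA8 (-0.03), IRX9 (0.26), VND6 (0.07) and VND7 (0.12) overlapped between the groups. In all, 5 of the 9 xylem markers did not overlap, against 41.3% of all genes tested. None of the endodermis markers was past the threshold, against 23.5% of all genes tested (0 of 6, also 0 at an unadjusted p under 0.05 and 0 of 6 with DESeq2). No marker of either list was at 0 counts in any library, and the part of these cells in the lower PAL3 and CCR1 counts was not tested.

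A wider list of 69 genes of the pathway, drawn up for this description, shows what the 10 genes sit among. Of these, 58 passed the filter and 20 were past the threshold, 16 higher and 4 lower, which is 34.5% against 23.5% of all genes tested. The median log2 fold change of the 58 was 0.19, against 0.00 over all genes. Single libraries weighed on the count of higher genes, which was 7 without mutant replicate 1, and 8 and 9 when replicate 1 or 3 of the wild type was left out, and the count of lower genes was 2 without mutant replicate 1. Over all genes the count past the threshold fell in the same fits as well, from 4882 to 1811, 2373 and 2682 in that order. Of the 11 genes that did not pass the filter, 5 (ADT6, KFB39, KFB50, MYB58 and F3H, the last for flavanone 3-hydroxylase) have at least 93.8% of their exonic bases under exons of the opposite strand and had at most 3 counts in any library. Their low counts are no measure of their expression.

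Among 13 further enzymes of the general pathway and of monolignol synthesis, 4 were past the threshold, which is 30.8% against 23.5% of all genes tested. All 4 were higher in bdh, whereas DESeq2 gave 4 higher and 1 lower. COMT1, an O-methyltransferase of the lignin branch, had 81.0, 96.8 and 91.7 CPM in the wild type and 153, 145 and 165 CPM in the mutant. It rose by 0.78 on the log2 scale (SE 0.10, edgeR adjusted p 0.00110), with a wide gap between the groups. FAH1, the ferulate 5-hydroxylase that commits precursors to syringyl lignin and sinapate, rose from 1.58 ± 0.154 to 2.76 ± 0.434 CPM (SD, n = 3 each, or on the log2 scale by 0.81, edgeR adjusted p 0.0184). 4CL3, the ligase gene known for its link to flavonoid synthesis, rose from 0.680 ± 0.139 to 1.66 ± 0.0488 CPM (SD, n = 3 each; 1.28, edgeR adjusted p 0.00707), while CCOAOMT7 was higher by 0.54 (0.0404). FAH1 lost the call in 5 of 19 alternatives, among them the fits without mutant replicate 1 and without wild-type replicate 1 (edgeR adjusted p 0.0852 and 0.0528), and CCOAOMT7 in 11 of 19 alternatives. Of the other 9, HCT, CYP98A3 and CSE, which act between 4CL and CCOAOMT1, had log2 fold changes of 0.23, 0.19 and -0.05, and CAD4, the closest relative of CAD5 here (77.8% identity over 1042 bases), one of 0.02. 4CL5 (-0.39, edgeR adjusted p 0.0577), ATR1 (-0.25, 0.0656) and ATR2 (-0.08, 0.491) were lower in every mutant library than in any of the wild type. In all, 7 of the 13 did not overlap between the groups, against 41.3% of all genes tested. Of the 13 log2 fold changes, 9 were above 0 and 4 below.

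Of 8 tested genes that supply phenylalanine, 2 were past the threshold, which is 25.0% against 23.5% of all genes tested. All 8 had a log2 fold change above 0, as had 10419 of the 20791 genes tested. ADT5, an arogenate dehydratase gene for the last step of phenylalanine synthesis, rose from 24.0 ± 0.810 to 34.4 ± 1.18 CPM (SD, n = 3 each, or on the log2 scale by 0.52, edgeR adjusted p 0.00364). DHS3, for the entry enzyme of the shikimate pathway, rose by 0.54 (edgeR adjusted p 0.0145) and lost the call without mutant replicate 1, wild-type replicate 1 or wild-type replicate 3 (0.0530 to 0.0599). None of 4 tested genes for PAL turnover proteins and for Mediator subunits that hold the pathway back was past the threshold, against 23.5% of all genes tested (0 of 4, also 0 at an unadjusted p under 0.05 and 0 with DESeq2). With so few genes, 0 is no sign that these genes are steadier than others.

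The 12 tested transcription regulators of secondary walls and lignin gave 3 higher and 1 lower, which is 33.3% against 23.5% of all genes tested. MYB61 (0.70) and MYB83 (0.93), activators of xylem or secondary wall genes, and the repressor gene MYB7 (0.29) were higher, with edgeR adjusted p of 0.0153, 0.0404 and 0.0385. KNAT7, a homeobox gene of secondary walls, fell from 21.0 ± 2.89 to 15.5 ± 0.573 CPM (SD with n = 3, log2 -0.44, edgeR adjusted p 0.0226). Each of these 4 lost the call in 6 to 12 of 19 alternatives, the fits without mutant replicate 1 among them. Of the 9 tested polymerising enzymes, 2 were higher and 1 lower past the threshold, which is 33.3% against 23.5% of all genes tested. With DESeq2 2 were higher and 2 lower. LAC4, a laccase gene of lignifying xylem, fell from 67.3 ± 11.1 to 41.5 ± 2.82 CPM (SD, n = 3 each, log2 -0.69, edgeR adjusted p 0.00474). The peroxidase gene PRX25 rose from 8.76 ± 2.27 to 23.8 ± 4.21 CPM (SD, n = 3 each; 1.44, edgeR adjusted p 0.00131), and PRX72 was higher by 0.36 (0.0463), a call lost in 10 of 19 alternatives. The laccase genes LAC11 and LAC17 had log2 fold changes of 0.02 and -0.20. The peroxidase gene PRX71, the most abundant of the 9, had 473 to 812 CPM in the wild type and 294 to 446 CPM in bdh. It was not past the threshold (-0.63, edgeR adjusted p 0.0601). Of the 9 log2 fold changes, 6 were above 0 and 3 below.

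**Figure D5:**
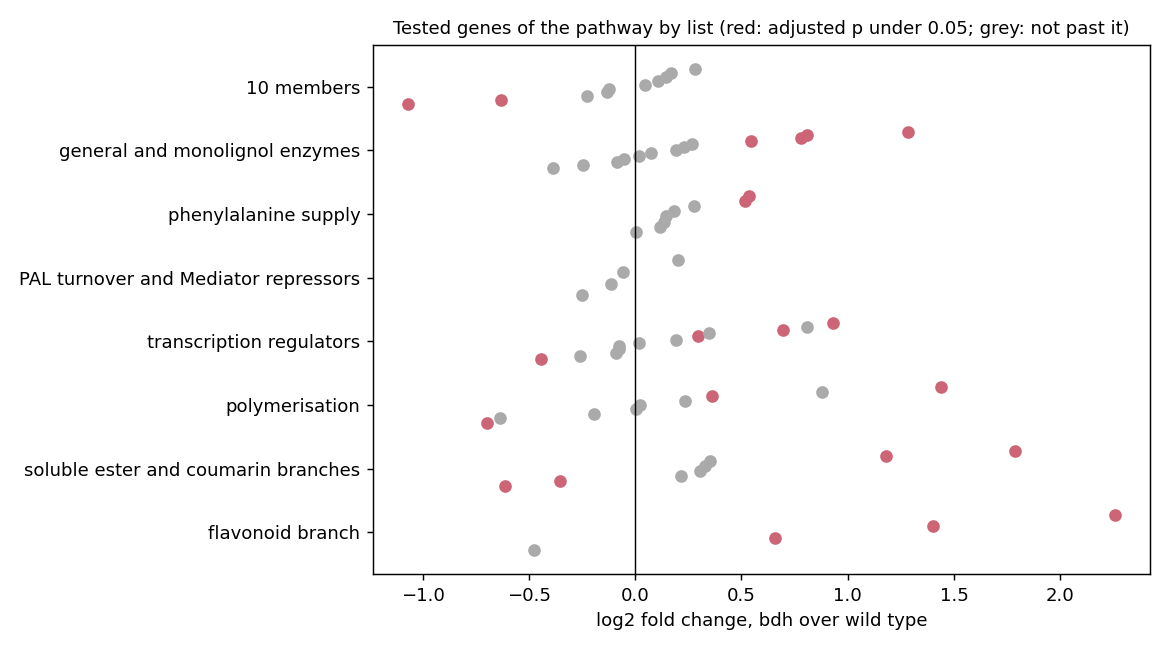
Log2 fold change of bdh over wild type (x axis) of each tested gene, by list (rows); red marks an adjusted p under 0.05. The 10 genes described here span -1.07 to 0.28, and the flavonoid genes reach 2.26.

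Side branches went both ways. Of 8 tested genes for soluble esters and coumarins, 4 were past the threshold, 2 higher and 2 lower, against 23.5% of all genes tested. UGT72E1, for a glucosyltransferase of monolignol precursors, fell by 0.61 on the log2 scale (edgeR adjusted p 0.0104). SNG1, for the enzyme that makes sinapoylmalate, fell by 0.35 (edgeR adjusted p 0.0462), a call lost in 12 of 19 alternatives. F6'H1, for the entry enzyme of coumarin synthesis, rose by 1.18 (0.0146) and lost the call without mutant replicate 1, wild-type replicate 1 or wild-type replicate 3 (0.0504 to 0.0550). UGT84A1 was also called as higher (1.79, 0.0317) from 8, 2 and 5 counts in the wild type and 14, 20 and 16 in bdh, too few to give its size; the call was lost in 10 of 17 alternatives, 5 of the 6 fits without 1 library among them. Of the 4 tested flavonoid genes, 3 rose, which is 75.0% against 23.5% of all genes tested called in either direction. The fourth, F3'H for flavonoid 3'-hydroxylase, had a log2 fold change of -0.48 that was not past the threshold (edgeR adjusted p 0.0732). Chalcone synthase (CHS), which takes the product of 4CL into flavonoids, had 6.50, 7.55 and 5.20 CPM in the wild type and 28.9, 37.8 and 25.4 CPM in the mutant. It rose by 2.26 on the log2 scale (SE 0.18, edgeR adjusted p 0.000134). FLS1 (1.40) and CHI (0.66) rose with edgeR adjusted p of 0.00981 and 0.00840. The counts of FLS1 were low, 36, 36 and 42 in the wild type and 60, 120 and 106 in bdh.

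The genes whose profile over the 6 libraries was most like the mean standardised profile of the 10 were RABG3A (Pearson r 0.992), SAUR68 (0.984), SAUR19 (0.982), AT3G51130 (0.978) and CIPK17 (0.977), the highest of 12567 genes compared. The mean profile was highest in wild-type replicate 2 (0.49) and mutant replicate 3 (0.30) and lowest in mutant replicate 2 (-0.33) and wild-type replicate 3 (-0.31). Of the 10 genes, 5 had a log2 fold change above 0 and 5 below, and these cancel in such a mean. The profile therefore says little about the genotype. These correlations are over 6 libraries and describe only these. The log2 fold changes of the 5 genes, which were picked to match that mean, ran from -0.18 to -0.02 and none was past the threshold.

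For this contrast, 3 of the 10 genes in the authors' deposited table have an adjusted p under 0.05, against 24.0% of the 23342 genes that have one there. PAL3 stands there, in the authors' deposited table, at -0.96 on the log2 scale (adjusted p 0.000223), CCR1 at -0.61 (8.59e-07) and CCOAOMT1 at 0.25 (0.0404). These come from the same libraries and are no independent evidence. Long transcripts tended to be lower in bdh (Spearman rho -0.40 between log2 fold change and exonic length across 16873 genes; genes are no independent replicates). With that trend taken out of each library, PAL3 (-0.94, edgeR adjusted p 0.00913) and CCR1 (-0.62, 0.00139) remained past the threshold, whereas PAL1, not past it in either fit, moved from -0.12 to 0.05. PAL2 moved from 0.15 to 0.31 and PAL4 from -0.22 to -0.08, also not past the threshold in either fit. In the wider list the count of higher genes went from 16 to 13 and that of lower genes stayed at 4. Over all genes the count past the threshold went from 4882 to 4130.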

How the data were processed

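Strand-specific libraries of polyadenylated RNA were, per the labels' protocols, sequenced by DNBSEQ. The submitters' processing notes name the build TAIR10, STAR 2.7.10b, featureCounts, Subread 2.0.3 and DESeq2 1.38, without their roles. The authors deposited raw counts per gene for each library, not pooled. Per the file headers, the authors' deposited comparison holds the mean normalized count (a signal), the log2 fold change and its error, and raw and adjusted p-values.

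The main test was run in edgeR 4.0.16 under R 4.3.3: filterByExpr, TMM factors, estimateDisp, glmQLFit and glmQLFTest over all genes, 3 libraries against 3, with Benjamini-Hochberg adjustment at 0.05. Standard errors were derived from the F statistic, so intervals are approximate. Ratios were tested with scipy 1.17.1, and copies searched with blastn 2.17.0. Sequences, exon overlaps and exonic lengths come from RefSeq TAIR10.1, whose 5 nuclear chromosomes were taken as those of TAIR10; 166 of the 38064 counted genes had no entry there.

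Library totals lay between 40876788 and 44982000 counts. Even numbers made up 74.8% of count values from 1 to 20, so counts need not be separate molecules. The tests were checked on simulated counts. Alternatives were other scalings, DESeq2 1.42.0, the newer quasi-likelihood method, other filters, a replicate block, each library left out, a minimum fold change of 1.5 in the test, a threshold of 0.01, spline offsets for exonic length and GC content and, added after seeing the data, counts halved. The 10 genes, the lists and the tests were chosen with earlier results of these data known. The rule for named genes takes the 10 genes, the called genes of each list (at most 6), the 5 genes with the most similar profile and the loci taken as mutated. Other genes were named after their values were seen.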

Additional observations from a re-analysis of the deposited data

How the results depend on the processing

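PAL3 and CCR1 were past the threshold as lower in all alternatives but the one with a minimum fold change of 1.5, where 0 of the 10 genes were lower (edgeR adjusted p 0.189 and 1.0). The count of genes higher among the 10 was 1 with DESeq2 and 1 with upper-quartile factors (CCOAOMT1 each time). Without 1 library it was 0 in each case, and 2 were lower in each. Directions of genes not past the threshold turned for PAL1 with the length offset (log2 fold change 0.0499), with GC content added (0.0664) and with a replicate block added (0.0498), for 4CL1 with length and GC offsets (0.0093), and for 4CL2 without mutant replicate 3 (-0.021, in a range up to 0.1173 without 1 library). Over all genes the count was 431 with a minimum fold change of 1.5, 1649 at an adjusted p under 0.01, and 1811 to 5558 without 1 library. In the wider list a minimum fold change of 1.5 left 2 higher and 0 lower, and an adjusted p under 0.01 left 7 and 1. Without 1 library there were 7 to 15 higher and 2 to 4 lower.

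The replicate numbers did not pair the samples: the correlations of same-numbered samples were 0.0469, -0.281 and -0.168, and 1 of 6 samples correlated best with its own number. With the replicate block 2090 genes were past the threshold, and 9 higher and 2 lower in the wider list; with the length offset as well, the counts were 2074 genes and 9 higher. Without 1 library the difference in log2 ratio ran from -0.30 to -0.24 for PAL1 to PAL2, from 0.08 to 0.13 for PAL1 to PAL4 and from -0.26 to -0.06 for 4CL1 to 4CL2. No scaling moved the median log2 fold change of all genes by more than 0.03. The causes of these changes were not tested.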
